A study of Mus musculus with 11 samples.

Results

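miR-139 was followed through both mature products of its hairpin, mmu-miR-139-5p and mmu-miR-139-3p (written below without the prefix for mouse), in liver small RNA libraries of mice with and without p53. The members are the 2 rows of the deposited count table whose name has the stem miR-139, of 1281 mature miRNA names in all. They were chosen by their measured counts in this same contrast, for a somewhat higher level of the abundant 5p arm, with little spread, in livers without p53, so every genotype difference of either arm given here is a description. No p-value is given for it, and counts of calls that include the arms stand only beside the share called among all miRNAs. The livers came from telomerase knockout mice of the G4 label on a C57/B6 background, untreated, all with short telomeres. A group of 5 libraries was from G4 p53+/+ mice, with intact p53, and a group of 6 was from G4 p53-/- mice, lacking p53. Telomerase was absent and telomeres were short in both groups, so the comparison concerns p53 only within that state. The labels used here state neither age nor sex nor whether each library came from its own animal, so the spread between libraries may be partly technical.

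MicroRNAs are short RNAs that guide Argonaute proteins to messenger RNAs through a seed near their 5′ end and lower the output of those messages. A hairpin precursor is cut into a duplex with a 5p and a 3p strand, and in most cases one strand is retained far more than the other. miR-139-5p is known as a miRNA that is reduced in hepatocellular carcinoma and that represses regulators of cell movement and growth such as Rock2. Its hairpin sits inside Pde2a, the gene of a phosphodiesterase that breaks down cyclic AMP and cyclic GMP.

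The mature arms and their hairpin are shown because the counts follow these exact products. RefSeq lists them on GRCm38.p6, and both arms matched by name. In the mature sequences the capitals mark the seed, bases 2 to 8, and in the hairpin they mark the 5p arm and then the 3p arm.
miR-139-5p: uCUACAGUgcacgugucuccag
miR-139-3p: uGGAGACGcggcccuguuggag
Mir139 hairpin: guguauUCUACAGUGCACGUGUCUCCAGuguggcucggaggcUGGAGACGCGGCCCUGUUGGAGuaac
Each arm is 22 bases long, the hairpin is 68 bases long, and 14 bases of loop separate the arms. The seed of neither arm is shared: of 1679 mature mouse miRNA names with a RefSeq sequence, 0 others carry CUACAGU or GGAGACG at bases 2 to 8. With the window shortened to bases 2 to 7, miR-6397 alone shares GGAGAC with the 3p arm, and it had 0 reads in every library. Among the names searched, the arms therefore have no family member with the same seed, and the table lists 1 hairpin for them. Names without a RefSeq sequence were not searched, and likeness outside the seed was not compared.

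The hairpin lies on the plus strand of chromosome 7 from 101475376 to 101475443, with the 5p arm from 101475382 to 101475403 and the 3p arm from 101475418 to 101475439. GENCODE M21, on the same GRCm38 build, places it inside Pde2a (chromosome 7, 101421691 to 101512827, plus strand) and inside the overlapping protein-coding gene model Gm45837, in the sense direction of both. Of the 12 Pde2a transcripts, 10 span the hairpin, and 0 exons of either gene overlap it. In the transcript Pde2a-201 it is in intron 2 of a gene model with 31 exons, 23907 bases after the upstream exon and 5927 bases before the downstream one. Pde2a messenger RNA was not measured in these small RNA libraries.

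miR-139-5p was a moderately abundant liver miRNA. Its mean over all libraries, 1509.7 CPM (counts scaled to a common total, here after TMM scaling, which sets a common scale from the miRNAs that differ least between libraries), ranked 41st of the 388 miRNAs that passed the filter on low counts. The nearest miRNAs in level were miR-423-3p at 1547.5 and miR-24-3p at 1517.7 CPM above it, and miR-151-3p at 1455.3 and miR-378d at 1399.3 CPM below it. These 5 means lie within the spread between libraries. The 3p arm was at 20.0 CPM on average, rank 205, below miR-704 at 20.6 and miR-671-5p at 20.5 CPM and above miR-224-5p at 19.9 and miR-217-5p at 19.5 CPM, which likewise lie within that spread. The mean of miR-217-5p joins 40.7 CPM in p53+/+ and 1.78 CPM in p53-/- livers, so it is the level of neither group. Both miR-139 arms had reads in every library, whose total counts ran from 1905609 to 6682492, and both passed the filter. For comparison, miR-122-5p, the dominant miRNA of hepatocytes, took between 52.4 and 64.0% of all counts of a library.

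In p53+/+ livers, miR-139-5p stood at 1051.3 CPM in library 1, 1435.1 in library 2, 1283.1 in library 3, 1335.4 in library 4 and 1142.7 in library 5. In p53-/- livers it stood at 1947.0 CPM in library 6, 1797.8 in library 7, 1500.6 in library 8, 2001.3 in library 10, 1452.4 in library 11 and 1659.9 in library 12. On this scale every p53-/- library lay above every p53+/+ library, but by only 17.3 CPM between the closest pair, p53+/+ library 2 and p53-/- library 11. The means were 1249.5 ± 153.0 CPM (SD, n = 5) and 1726.5 ± 228.0 CPM (SD, n = 6), so the p53-/- mean was 1.38 times the p53+/+ mean. The fitted log2 fold change, p53-/- over p53+/+, was 0.47 (SE 0.14). Ranges that do not overlap with p53-/- above were rare among the miRNAs tested, 5 of 388 or 1.29%, beside 1.03% with p53-/- below, but this contrast chose the arm and nothing is read from the count. The other 4 were miR-194-2-3p, miR-501-3p, miR-664-5p and miR-99b-3p, named after their values were seen.

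**Figure D1:**
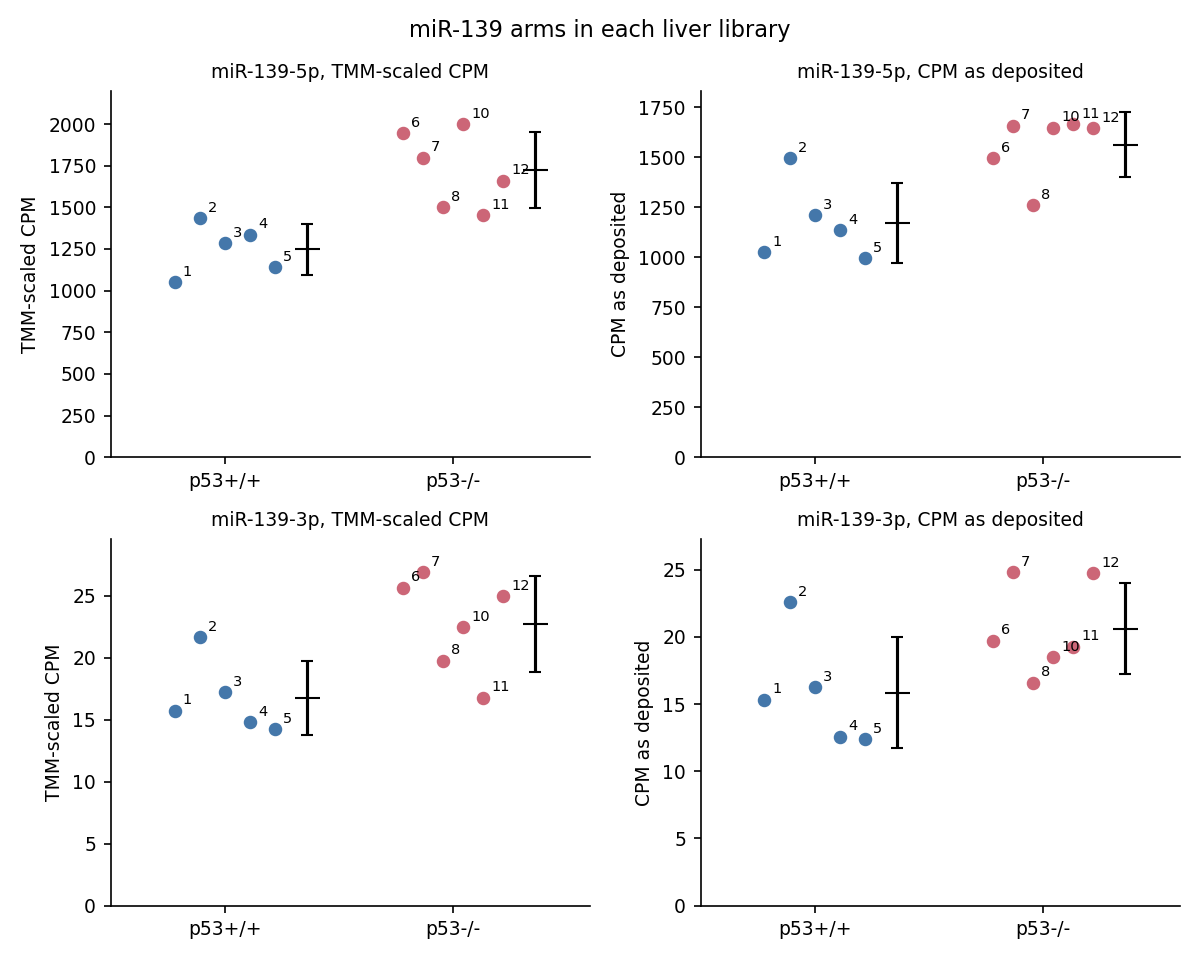
Level of miR-139-5p (top) and miR-139-3p (bottom) in each library, as TMM-scaled CPM (left) and as the CPM that the authors deposited (right); points are libraries with their replicate number, and the bar beside each group is the mean with its SD (n = 5 p53+/+, n = 6 p53-/-). The 5p arm separates the genotypes on the left, by 17.3 CPM, and not on the right, where p53+/+ library 2 is level with p53-/- library 6 and above library 8.

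The separation of the 5p ranges depended on the scaling. The CPM as the authors deposited them only divide by the library's sum over all listed hairpin entries. In these, the p53+/+ libraries 1 to 5 were at 1024.37, 1496.11, 1209.92, 1135.02 and 993.93. The p53-/- libraries 6, 7, 8, 10, 11 and 12 were at 1495.27, 1657.35, 1259.64, 1648.03, 1666.87 and 1645.80. Here 4 of 6 p53-/- libraries lay above the highest p53+/+ library, while library 8 lay below it, a gap of -236.5 CPM. On both scales the p53+/+ median was exceeded in 6 of 6 p53-/- libraries. Library 11, the highest on the deposited scale, was the lowest of its genotype after TMM, whose factor was largest for it at 1.24 and smallest for p53-/- library 6 at 0.832. Of the 5 miRNAs with separate ranges after TMM, 1 kept them in the deposited CPM, miR-99b-3p, and over all miRNAs tested 0.258% were separate there with p53-/- above.

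The 3p arm differed in the same direction and by a similar factor. Its levels in p53+/+ libraries 1 to 5 were 15.7, 21.7, 17.3, 14.8 and 14.3 CPM after TMM. In p53-/- libraries 6, 7, 8, 10, 11 and 12 they were 25.7, 26.9, 19.8, 22.5, 16.8 and 25.0 CPM. The ranges overlapped: p53+/+ library 2 exceeded p53-/- libraries 8 and 11, and p53-/- library 11 lay below p53+/+ library 3 as well. The means were 16.7 ± 2.97 CPM (SD, n = 5) and 22.8 ± 3.87 CPM (SD, n = 6), 1.36 times higher without p53, and the log2 fold change was 0.45 (SE 0.19). The p53+/+ median was again exceeded in 6 of 6 p53-/- libraries.

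Neither arm passed the threshold adjusted over all miRNAs tested. In edgeR's quasi-likelihood test, 0 of the 2 arms were called at an adjusted p of 0.05, where 0.258% of the 388 miRNAs were called in either direction and 0% as higher. DESeq2 called 0 of the 2 arms, against 2.06% of the 388 miRNAs as higher, and limma-voom 0 of the 2, against 0%. The DESeq2 share counts as not called the miRNAs to which DESeq2 gave no adjusted p, so it is a low figure. At an unadjusted p under 0.05 edgeR had 8.25% of the 388 miRNAs as higher and 17.3% in either direction. Since this contrast chose the arms, nothing is read from their counts. On simulated counts, with the changed miRNAs drawn from all levels, the edgeR test found 24.5% of 1.5-fold changes. That share is not the one for a miRNA as abundant and as steady as miR-139-5p. It therefore does not say how much the missing call means. The single miRNA called in edgeR was miR-34a-5p, whose gene p53 is known to activate, at 71.9 ± 32.4 CPM (SD, n = 5) in p53+/+ and 7.13 ± 2.95 CPM (SD, n = 6) in p53-/- livers, a log2 fold change of -3.33. In this contrast miR-139-5p thus showed a far smaller difference in the opposite direction.

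**Figure D2:**
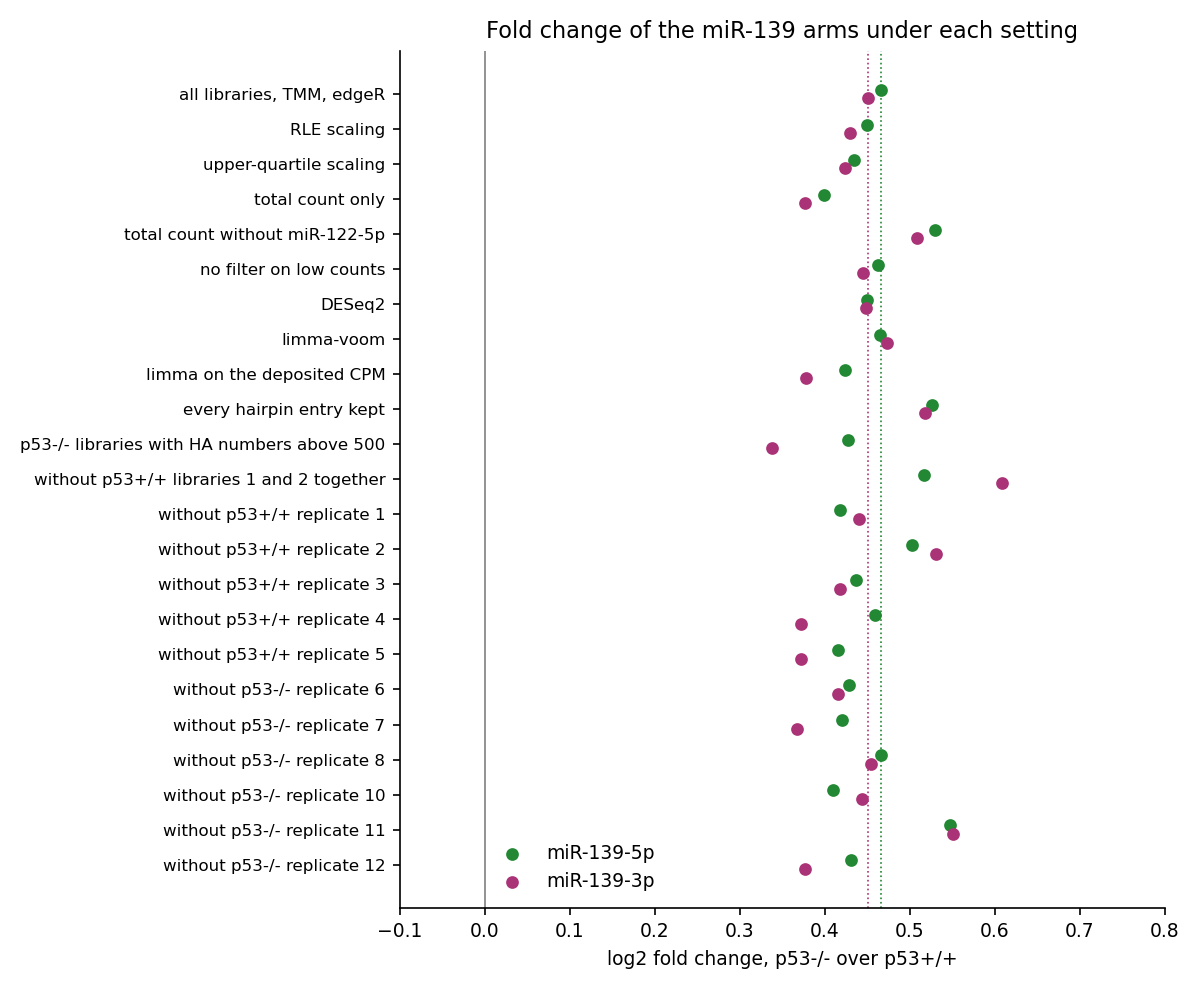
Log2 fold change (p53-/- over p53+/+) of miR-139-5p and miR-139-3p under the reported analysis (top row, dotted lines) and under each other scaling, filter, test or choice of libraries. All points lie above 0, between 0.40 and 0.55 for the 5p arm and between 0.34 and 0.61 for the 3p arm.

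Leaving out libraries describes the difference and does not test it, since the 5p arm was chosen for a difference with little spread in these same libraries. With each library left out in turn the log2 fold change of miR-139-5p was lowest at 0.41, when p53-/- library 10 was omitted, and highest at 0.55, when p53-/- library 11 was omitted, and that of miR-139-3p from 0.37 to 0.55. The descriptions of the libraries carry numbers after the letters HA, which the labels do not explain. These numbers are above 500 in all 5 p53+/+ libraries and in p53-/- libraries 10, 11 and 12, and below 500 in p53-/- libraries 6, 7 and 8. The p53-/- libraries with numbers below 500 averaged 1748.5 ± 227.3 CPM of miR-139-5p (SD, n = 3) and those above 500 averaged 1704.5 ± 277.1 CPM (SD, n = 3). Their ranges, 1500.6 to 1947.0 and 1452.4 to 2001.3 CPM, overlapped. With the p53-/- libraries above 500 alone, the log2 fold change was 0.43 for the 5p arm and 0.34 for the 3p arm.

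The spread of the 5p arm between libraries was low for a miRNA of its level, a property that entered its choice. Its coefficient of variation was 12.2% in p53+/+ and 13.2% in p53-/- livers, and its SD within genotypes was 0.19 on the log2 scale, against a median of 0.42 over the 388 miRNAs tested. Of the 40 miRNAs nearest to it in level, 1 had a smaller SD. Counting error made up little of this: the 2205 to 12030 reads per library give a relative counting error of 0.912 to 2.13%. The 3p arm was counted from 33 to 180 reads per library, a counting error of 7.45 to 17.4%, and its coefficient of variation was 17.8% in p53+/+ and 17.0% in p53-/- livers. For the 3p arm, counting error came closest to this spread in p53+/+ library 1, which had the fewest reads of it. Among p53-/- libraries the counting error was 14.7% in library 11 and between 7.45 and 9.67% in the others, below the 17.0% between libraries. These errors are those of counting alone, as no molecular identifiers are described.

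The balance between the arms does not depend on the scaling, since both arms share the library total. In p53+/+ libraries 1 to 5 there were 66.8, 66.2, 74.3, 90.2 and 80.1 reads of miR-139-5p for each read of miR-139-3p. In p53-/- libraries 6, 7, 8, 10, 11 and 12 there were 75.8, 66.8, 75.9, 89.0, 86.5 and 66.5. The ranges of the genotypes coincided, with means of 75.5 ± 10.0 (SD, n = 5) and 76.8 ± 9.49 (SD, n = 6). As a share of miR-139 reads the 3p arm was lowest in p53+/+ library 4, at 1.1% with a 95% Clopper-Pearson interval from 0.880 to 1.35%. It was highest in p53+/+ library 2, at 1.49% with an interval from 1.1 to 1.97%. The mean log2 ratio of the arms was 6.23 ± 0.19 (SD, n = 5) in p53+/+ and 6.25 ± 0.18 (SD, n = 6) in p53-/- livers, a difference of 0.02, well within the spread. The higher level without p53 was thus shared by both strands in nearly equal proportion.

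**Figure D3:**
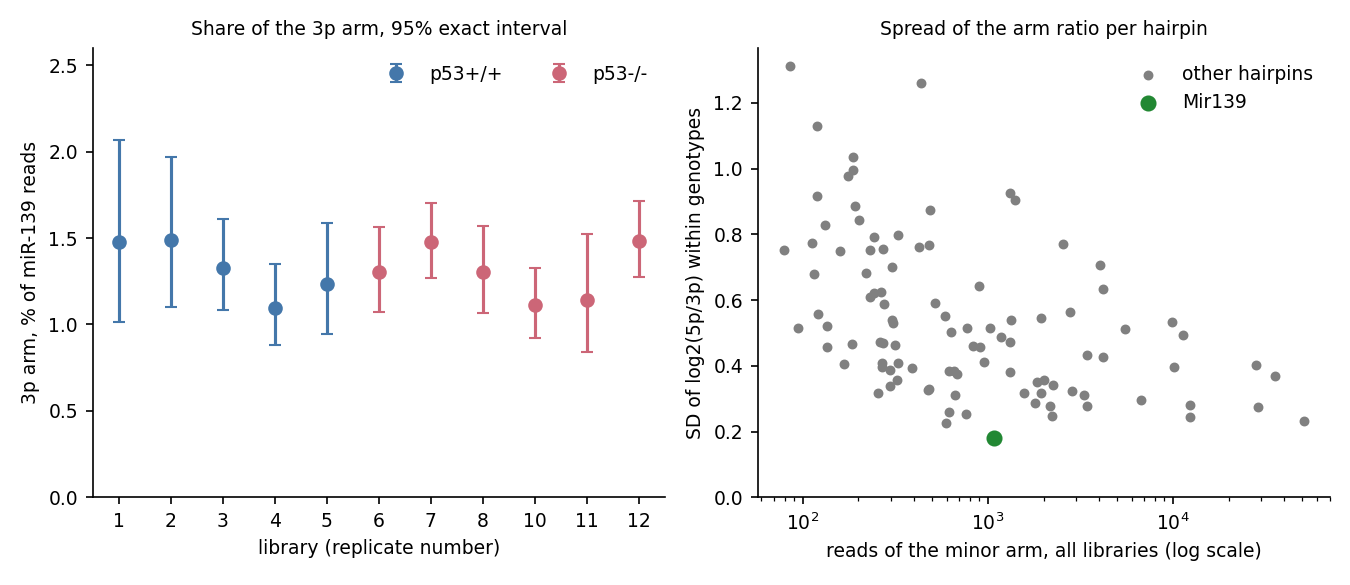
Left, the 3p arm as a percentage of all miR-139 reads in each library, with its 95% Clopper-Pearson interval; every interval overlaps every other. Right, for the 100 hairpins with reads of both arms in every library, the SD of the log2 ratio of the arms within genotypes against the reads of the minor arm over all libraries (log axis); Mir139 has the lowest SD, 0.18.

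This balance was the steadiest of any hairpin that could be compared. There were 100 hairpins whose arms both passed the filter, were listed for 1 hairpin each and had reads in every library. The SD of the log2 arm ratio within genotypes was 0.18 for miR-139, while the other 99 ranged from 0.23 to 1.31, and the median of all 100 was 0.48. A minor arm with few reads inflates this SD, so depth matters: the 35 other hairpins whose minor arm had at least as many reads as the 1076 of miR-139-3p had a median of 0.38. Across the 11 libraries the 3p share varied about as much as counting allows, with a chi-square of 13.8 on 10 degrees of freedom, or 1.38 per degree of freedom. The ranking is a description, and since low spread of the 5p arm entered the choice of miR-139, it is not independent of that choice. In the strength of its strand preference miR-139 was not extreme: over all libraries there were 75.3 reads of 5p per read of 3p, and 14 of the 100 hairpins favoured their 5p arm more.

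Whether the arms also moved together between libraries of 1 genotype was asked after the genotype means had been removed from log2 CPM. This takes out the genotype difference that chose the arms. The low spread of the 5p arm within genotypes also entered the choice, and it remains in these values. The p-values below are therefore not independent of that choice. Pearson's r of miR-139-5p with miR-139-3p was 0.69 over 11 libraries (two-sided exact permutation within genotypes, p = 0.0313, 0.0938 after adjustment over the 3 relations computed), and Spearman's rho was 0.63 (exact permutation p = 0.0574, adjusted p = 0.172). The relation did not pass after adjustment, though it did when p53+/+ library 4 was omitted (r = 0.78, exact permutation, adjusted p = 0.0497). Within the p53-/- libraries alone r was 0.73 and rho 0.60 (n = 6, exact permutation p = 0.104 and 0.242), and no value is given for the 5 p53+/+ libraries, which are fewer than the 6 set as the minimum for a correlation. Without the 2 libraries farthest from the median of the 3p arm, p53+/+ library 2 and p53-/- library 11, r was 0.39 (exact permutation p = 0.338), so the relation did not hold without both of them. Leaving out the libraries at the ends of the 3p range also narrows that range, and with either one alone left out r was 0.61 and 0.58. With scaling by the total count alone r was 0.81 (exact permutation p = 0.00574, adjusted p = 0.0172). Both arms share the depth and scaling of a library, whose part in the relation was not tested.

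The other relations did not pass either. With the log2 library total, miR-139-5p had r = 0.34 and rho = 0.21 (exact permutation p = 0.323 and 0.557, adjusted p = 0.323 and 0.557), and r = 0.51 without the 2 libraries farthest from the median. With miR-122-5p it had r = 0.45 and rho = 0.47 (exact permutation p = 0.202 and 0.169, adjusted p = 0.303 and 0.253), and r = 0.07 without the 2 farthest. Single libraries moved these values. Without p53+/+ library 2, r was 0.67 with the library total and 0.70 with miR-122-5p (exact permutation p = 0.0249 and 0.0484, adjusted p = 0.0727 for both), and without p53-/- library 11 they were 0.08 and 0.23. Both values of r turned negative when only the total count was used for scaling, at -0.29 for the library total and -0.25 for miR-122-5p.

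The miRNAs whose levels moved most like miR-139-5p were sought among the 151 others with a mean of at least 50 CPM. Over the 11 libraries, with the genotype difference included, Pearson's r was highest for let-7e-5p (0.74), miR-652-3p (0.72), let-7c-5p (0.70), miR-99b-3p (0.70) and miR-744-5p (0.68). The 3p arm, too low to be a candidate, had a higher r than any of the 151, at 0.85, a value that includes the difference which chose the arms. With genotype means removed its r was 0.69, and 2 of the 151 were higher. With genotype means removed, the highest r were those of let-7c-5p (0.76), let-7a-5p (0.71), miR-30b-5p (0.66), miR-98-5p (0.65) and miR-652-3p (0.64). miR-99b-3p and miR-744-5p then had r of -0.02 and 0.06, so little likeness remained within genotypes after TMM, while on plain CPM miR-744-5p was at 0.53 and miR-99b-3p at -0.19. They were at 44.5 and 563.3 CPM on average in p53+/+ and at 75.3 and 839.8 CPM in p53-/- livers.

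Of these 8 miRNAs, 4 carry the let-7 seed, and their mature sequences are shown with the seed in capitals because they differ at few positions.
let-7a-5p: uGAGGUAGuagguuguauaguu
let-7c-5p: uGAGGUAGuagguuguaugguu
let-7e-5p: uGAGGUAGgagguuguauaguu
miR-98-5p: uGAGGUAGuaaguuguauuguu
Reads of such near-identical miRNAs may be split or shared between names in the authors' counting, so they are not separate witnesses. This grouping was made after the values were seen. Among the 151 candidates, 9 had the let-7 seed in RefSeq, and 8 of the 9 had an r above the candidates' median of 0.02 with genotype means removed. Their r ran from -0.32 for let-7i-5p to 0.76 for let-7c-5p, with a median of 0.56. The seed of miR-139-5p, CUACAGU, differs from the let-7 seed GAGGUAG.

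**Figure D4:**
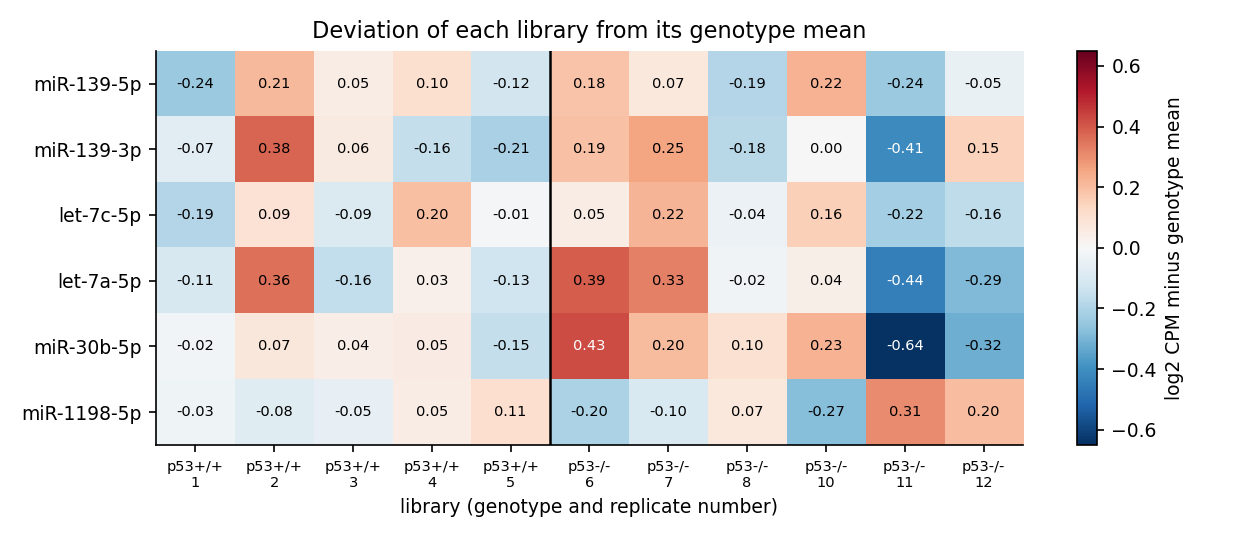
Log2 CPM of each library minus its genotype mean for both miR-139 arms, the 3 miRNAs with the highest and the 1 with the lowest Pearson r with miR-139-5p. Red cells lie above and blue cells below the mean of the genotype; p53-/- library 11 is at -0.24 for miR-139-5p and at -0.64 for miR-30b-5p.

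Part of this likeness moved with the scaling. On plain CPM, an alternative added after the data were seen, miR-652-3p (0.83) and let-7c-5p (0.80) ranked highest, miR-98-5p (0.70) ranked 5th and let-7a-5p (0.65) ranked 11th of 151, while miR-30b-5p (0.38) ranked 49th and let-7e-5p (0.19) 77th. The miRNAs most opposed to miR-139-5p after TMM were miR-1198-5p (-0.73), miR-423-5p (-0.67) and miR-541-5p (-0.61). On plain CPM they were at 0.22, 0.02 and -0.55, so the opposition held for miR-541-5p alone. The log2 TMM factor itself had r of -0.38 with miR-139-5p and -0.76 with miR-30b-5p after TMM. On plain CPM these were 0.54 and -0.24. With miR-1198-5p, miR-423-5p and miR-541-5p the factor had r of 0.89, 0.73 and 0.08 on plain CPM. The part of the factor in these relations was not tested on either scale. These r are descriptions over 11 libraries that share their scaling and say nothing on common control.

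Lists of miRNAs place the arms among other liver miRNAs with related roles. Of miRNAs reported lower in hepatocellular carcinoma, a class to which miR-139 is known to belong and from which it was left out here, 57 arms were tested: 16 had values above 0 and 41 below, with a median log2 fold change of -0.13, beside -0.01 over all 388 miRNAs, of which 190 were above 0. Of the 57, 1 was called lower in edgeR, miR-34a-5p, and 0 higher. Over all 388 miRNAs 0.258% were called in either direction and 0% as higher. As miR-34a-5p was the only miRNA called, the counts of calls say nothing on this list or the next ones. The most abundant members were miR-122-5p (0.16), miR-192-5p (-0.14) and let-7g-5p (-0.06). Some arms of this list are not separate. miR-199a-3p and miR-199b-3p had nearly the same values, and let-7a-1-3p and let-7c-2-3p had identical ones. The miR-139 arms, at 0.47 and 0.45, had the sign of the minority of this list. Of miRNAs reported higher in that cancer, 34 arms were tested, 18 above 0 and 16 below (median 0.07), with 0 called. Its most abundant members were miR-21a-5p (0.08), miR-92a-3p (0.24), whose count is uncertain between its hairpins, and miR-151-3p (0.56). Of miRNAs reported to be induced by p53, 30 arms were tested, 7 above 0 and 23 below (median -0.22), and 1 fell, again miR-34a-5p. Among them miR-192-5p was at -0.14, miR-194-5p at -0.52 and miR-143-3p at -0.08. The first and the last of these lists share miR-34a, miR-192, miR-194, miR-145a, miR-29a, miR-29b and miR-29c. Their counts below 0 are therefore partly of the same arms.

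Markers of the cell types in liver were compared beside the arms, because in whole tissue a change in the share of a cell type and a change within cells cannot be told apart. The 18 hepatocyte arms, mostly miR-122-5p, summed to between 508470 and 707830 CPM in p53+/+ and between 489080 and 845960 CPM in p53-/- libraries. The 2 endothelial arms, those of miR-126, summed to between 6011 and 11012 CPM and between 5771 and 10475 CPM. Leukocyte arms (12) ranged from 894 to 1927 and from 827 to 1310 CPM, erythroid arms (5) from 531 to 1407 and from 594 to 1347 CPM, and mesenchymal and stellate arms (12) from 5671 to 9856 and from 6372 to 7544 CPM. For each of these the ranges of the genotypes overlapped. Neuronal arms (15, 2 of them at 0 in all libraries) ranged from 197 to 252 CPM in p53+/+ and from 176 to 729 CPM in p53-/- libraries. Epithelial and biliary arms (12, 2 at 0) ranged from 1106 to 3067 and from 854 to 2511 CPM. Pancreas arms (8, 1 at 0) ranged from 2.86 to 416 CPM in p53+/+ and from 6.93 to 28.0 CPM in p53-/- libraries, and striated muscle arms (9, 5 at 0) from 4.29 to 45.8 and from 4.44 to 40.9 CPM. These ranges overlapped as well. Sums follow the most abundant arms, and the log2 fold changes of the arms that passed the filter give another view. Values were below 0 for 10 of 11 mesenchymal and stellate arms (median -0.19), for 8 of 9 epithelial and biliary arms (median -0.24) and for both endothelial arms (median -0.27). They were above 0 for 8 of 14 hepatocyte arms (median 0.07), 6 of 9 leukocyte arms (median 0.18), 3 of 5 erythroid arms (median 0.25) and 3 of 5 neuronal arms (median 0.25). Both tested pancreas arms (median -3.35) and both tested muscle arms (median -0.78) were below 0. Among the mesenchymal and stellate arms, miR-199a-3p and miR-199b-3p had nearly the same values and are not separate. In edgeR 0 of the marker arms were called, beside 0.258% of all 388 miRNAs, so nothing is read from this count. The part of the cell makeup in the miR-139 difference was not tested.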

How the data were processed

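Per the labels' protocols, total RNA from 50 mg of liver was extracted with Trizol and column-purified, and all 11 libraries ran on lane 4. Counts of reads for every mature miRNA, listed by hairpin on GRCm38, were deposited by the authors, as were CPM that scale these counts to a fixed total. The submitters' processing notes also name limma. The aligner and counter: not given in the sources used here. Files per library and for the series held the same values (0 differences). Each mature name was counted once, at its highest count over hairpins, giving totals of 1905609 to 6682492. The genotype fit used R 4.3.3 and edgeR 4.0.16 (TMM, quasi-likelihood, filterByExpr, Benjamini-Hochberg over 388 miRNAs holding 99.98% of counts), a procedure tested on simulated data. DESeq2 1.42.0 and limma 3.58.1 were alternatives. Log2 CPM used a prior count of 2. CPM in the text are TMM-scaled unless called deposited or plain. Plain CPM divide by the total with each mature name counted once. Deposited CPM divide by the sum over all 1418 listed hairpin entries, so the 2 scales differ.

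The members and the lists were chosen with earlier results of these data known. Named miRNAs were both arms, the 5 with the highest r with miR-139-5p before and after removal of genotype means, the 3 with the lowest after it, the 2 miRNAs next above and the 2 next below each arm in level, miRNAs sharing a seed, the 3 most abundant arms of the lists on cancer and p53, and miR-34a-5p and miR-122-5p as reference points. For cell type lists, summed levels are given. Where a list name with a final letter was missing from the table, the name without it was used, as for miR-126. RefSeq sequences were matched by name.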

Additional observations from a re-analysis of the deposited data

How the results depend on the processing

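Under 22 alternatives (other scalings, filters, tests, hairpin handling, and libraries left out) the log2 fold changes of both arms kept their sign and moved by less than the SD between libraries, 0.19 for miR-139-5p and 0.25 for miR-139-3p. With 1 library left out they ran from 0.41 to 0.55 and from 0.37 to 0.55, and under the other 11 alternatives from 0.40 to 0.53 and from 0.34 to 0.61. The difference in the log2 arm ratio, 0.03 on log2 CPM, changed sign in some settings but stayed within the spread: it ran from -0.01 to 0.10 with 1 library left out and from -0.08 to 0.10 otherwise. The count of called miRNAs was 1 to 1 with a library left out and 17 in DESeq2 (8 higher, 9 lower); the cause was not tested. The r of the arms within genotypes ran from 0.58 to 0.78 with 1 library left out, with an adjusted exact permutation p of 0.0497 without p53+/+ replicate 4. It was 0.81 with total-count scaling, where it passed; the cause was not tested. With total-count scaling r of miR-139-5p turned to -0.29 with the library total and to -0.25 with miR-122-5p, from 0.34 and 0.45. In alternatives added after the data were seen, the values that changed sign were the gap between the 5p ranges, -236.5 CPM on the deposited scale in place of 17.3, and the r of miR-1198-5p (0.22) and miR-423-5p (0.0172) on plain CPM. No paired analysis was possible because the replicate numbers run on from one genotype to the other and share none. Scaling by the total count without miR-122-5p moved the median of all miRNAs to 0.07, from -0.01. The 33 to 180 reads of the 3p arm per library limit what can be said of it.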
